A study of Rattus norvegicus with 20 samples.

Results

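The genes that bring long-chain fatty acids into the rat hepatocyte, carry them in its cytosol and join them to coenzyme A were followed over 4 diets in liver RNA. The group held 9 genes: the uptake proteins Cd36, Slc27a2 and Slc27a5, the binding proteins Fabp1 and Dbi, and the long-chain acyl-CoA synthetases Acsl1, Acsl3, Acsl4 and Acsl5. Members were all probe sets (the sets of array probes that read 1 transcript) whose platform annotation gave 1 of these symbols and no other, which found 9 of the 14217 genes so annotated and 12 of the 31099 probe sets of the table. Acsl1 had 3 probe sets, Acsl5 had 2 and each other gene had 1. The tests covered 15894 probe sets bright enough to pass a filter (above 17.84, the 40th percentile of the normalized values, on at least 5 arrays), of which 11 were members. The third Acsl1 probe set, 1382887_at, exceeded that level on 1 array only, at 19.8 in episesamin rat 1, and was not tested.

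Livers came from male Sprague-Dawley rats bought at 4 weeks of age and kept for 7 d on a commercial diet. The 4 groups of 7 rats then ate a diet with 0.2% sesamin, 0.2% episesamin or 0.2% sesamolin, or the lignan-free diet, for 15 d. Sesamin, episesamin and sesamolin are lignans of sesame: episesamin is the epimer of sesamin, and in sesamolin an oxygen atom links 1 of the aryl groups to the central ring system. Each diet gave 5 Affymetrix arrays, 1 per rat, since the heaviest and the lightest rat of each group were left out, so replicates are separate animals and the groups do not span the whole range of body weight.

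Long-chain fatty acids cross the plasma membrane by diffusion and with the help of membrane proteins such as the scavenger receptor CD36 and the fatty acid transport proteins of the Slc27 family. Inside the cell they are held by fatty acid-binding protein, and acyl-CoA synthetases trap them as acyl-CoA, the form that enters oxidation, triglyceride synthesis and membrane lipids. Several of these genes are textbook targets in rodent liver of the nuclear receptor PPARalpha, which binds DNA with RXR at direct repeats of the half-site AGGTCA with a single base between them.

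All 9 genes matched a promoter of the RefSeq annotation of build GRCr8, taken as the 250 bases before the annotated start and the 50 bases from it. The 3 members with the highest fold changes, Cd36, Slc27a2 and Acsl3, are shown with Fabp1, which held the longest motif match. Each is written 5′ to 3′ on the strand of its gene, and capitals mark matches to the motifs searched. The promoter of Cd36 lies at chr4:18246332-18246631 (plus strand), that of Slc27a2 at chr3:134257851-134258150 (plus strand), that of Acsl3 at chr9:87563351-87563650 (plus strand) and that of Fabp1 at chr4:104749090-104749389 (plus strand).
Cd36: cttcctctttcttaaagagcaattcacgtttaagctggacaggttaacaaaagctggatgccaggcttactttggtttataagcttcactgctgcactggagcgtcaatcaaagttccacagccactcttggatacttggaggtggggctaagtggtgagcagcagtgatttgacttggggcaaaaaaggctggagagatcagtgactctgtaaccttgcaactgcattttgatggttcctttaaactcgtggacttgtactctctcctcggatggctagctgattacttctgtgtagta
Slc27a2: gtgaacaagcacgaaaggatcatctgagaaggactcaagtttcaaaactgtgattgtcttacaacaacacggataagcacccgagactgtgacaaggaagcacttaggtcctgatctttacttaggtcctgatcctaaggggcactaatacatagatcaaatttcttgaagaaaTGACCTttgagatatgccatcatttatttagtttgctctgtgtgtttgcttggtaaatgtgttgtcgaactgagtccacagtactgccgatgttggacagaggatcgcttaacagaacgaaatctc
Acsl3: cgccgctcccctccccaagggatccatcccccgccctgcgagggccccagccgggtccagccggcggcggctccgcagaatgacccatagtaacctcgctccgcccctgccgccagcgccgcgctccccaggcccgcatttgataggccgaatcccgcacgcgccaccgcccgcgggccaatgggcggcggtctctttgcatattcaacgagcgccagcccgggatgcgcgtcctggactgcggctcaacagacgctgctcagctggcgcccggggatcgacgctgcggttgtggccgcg
Fabp1: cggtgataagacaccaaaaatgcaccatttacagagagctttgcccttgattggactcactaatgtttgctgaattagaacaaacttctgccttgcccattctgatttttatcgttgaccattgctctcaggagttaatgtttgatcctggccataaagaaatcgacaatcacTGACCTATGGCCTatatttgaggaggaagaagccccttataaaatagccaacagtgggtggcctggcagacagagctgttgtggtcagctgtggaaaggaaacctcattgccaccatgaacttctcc
Both strands were searched for the half-site AGGTCA, for the direct repeat AGGTCANAGGTCA and for its looser form AGGNCANAGGNCA. Slc27a2 held 1 half-site, TGACCT as read on the plus strand, from -76 to -71 relative to the start. Fabp1 held the looser repeat as TGACCTATGGCCT, from -77 to -65, which includes a half-site from -77 to -72. None of the 9 promoters held the direct repeat itself, and the other 7 held none of the 3 motifs in this window. Among 33469 promoters of the same length, 16.2% held the half-site, 0.0538% the direct repeat and 0.415% the looser repeat. A match is a run of letters and not a measured binding site. The start used lies inside the annotated gene by 37494 bases for Cd36, 5038 for Fabp1 and 21718 for Acsl1, so other first exons of these genes were not searched.

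The table was unscaled, with array means of raw intensity from 192.4 to 267.7 for sesamin, 170.8 to 268.1 for episesamin, 159.2 to 261.3 for sesamolin and 197.4 to 271.0 for lignan-free rats. Differences in this brightness from the lignan-free diet gave two-sided exact permutation p-values of 0.540, 0.151 and 0.262 for sesamin, episesamin and sesamolin (5 arrays against 5, smallest possible 0.00794). Because the array means differed up to 1.70-fold, the arrays were quantile normalized, and normalized intensities are given here. Array values of a gene are listed for rats 1 to 5 of a diet, in the order of the replicate numbers in the labels. Arrays of a diet correlated at 0.953 to 0.977 over the tested probe sets. Summed levels of the hepatocyte markers were 81530 to 85960 with sesamin, 79420 to 85600 with episesamin and 82070 to 88570 with sesamolin. They were 82870 to 88940 without lignan, and 0 of 9 markers were called in any comparison by limma. The brightest markers, such as Alb at a mean of 14000, weigh most in these sums. Quantile normalization gives each rank the same value on every array, which leaves such bright markers little room to rise. The sums are therefore a weak measure of hepatocyte content. Log2 changes of the 9 against the lignan-free diet ran from -0.40 to 0.08, and 2 of 9 lay above 0 with each lignan. In liver tissue, fewer cells of a type and less RNA per cell cannot be told apart.

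Against the lignan-free diet, 4 of the 11 tested member probe sets rose with episesamin and the same 4 rose with sesamolin, while none fell. They read Cd36, Slc27a2, Acsl3 and Acsl1 (its probe set 1388153_at). Log2 changes are lignan minus lignan-free, from limma, and a call is a Benjamini-Hochberg adjusted p below 0.05 over all tested probe sets of a comparison. With episesamin 3.77% of all tested probe sets were called and 2.33% were called higher, and with sesamolin 4.86% were called and 2.60% were called higher. The members were chosen with earlier results of these data known, so their counts beside this background are a description and not a test. With sesamin 0 of 11 member probe sets were called by limma, where the background was 0.333%. At an unadjusted p below 0.05, in either direction, sesamin had 6 of 11 members and 1115 of 15894 probe sets. Episesamin had 7 members and 2914 probe sets, and sesamolin had 8 and 2960. Among these members the Acsl5 probe set 1386926_at was lower with each lignan, and Slc27a5 was lower with sesamin and sesamolin. The median log2 change of the 11 members was 0.19, 0.19 and 0.18 with sesamin, episesamin and sesamolin, where the median over all tested probe sets was -0.01, -0.02 and -0.01. Acsl1 and Acsl5 enter these medians by 2 probe sets each. The sesamin median is the value of the dim Acsl5 probe set 1397375_at (0.19 ± 0.19), so like medians do not mean like changes of the called members. The 4 probe sets called with episesamin and sesamolin had log2 changes of 0.25 to 0.50 with sesamin. An F test over the 4 diets called the same 4 members, against 3.52% of all tested probe sets. The 3 lignan comparisons share the 5 lignan-free arrays, so their counts are not independent of each other.

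**Figure D1:**
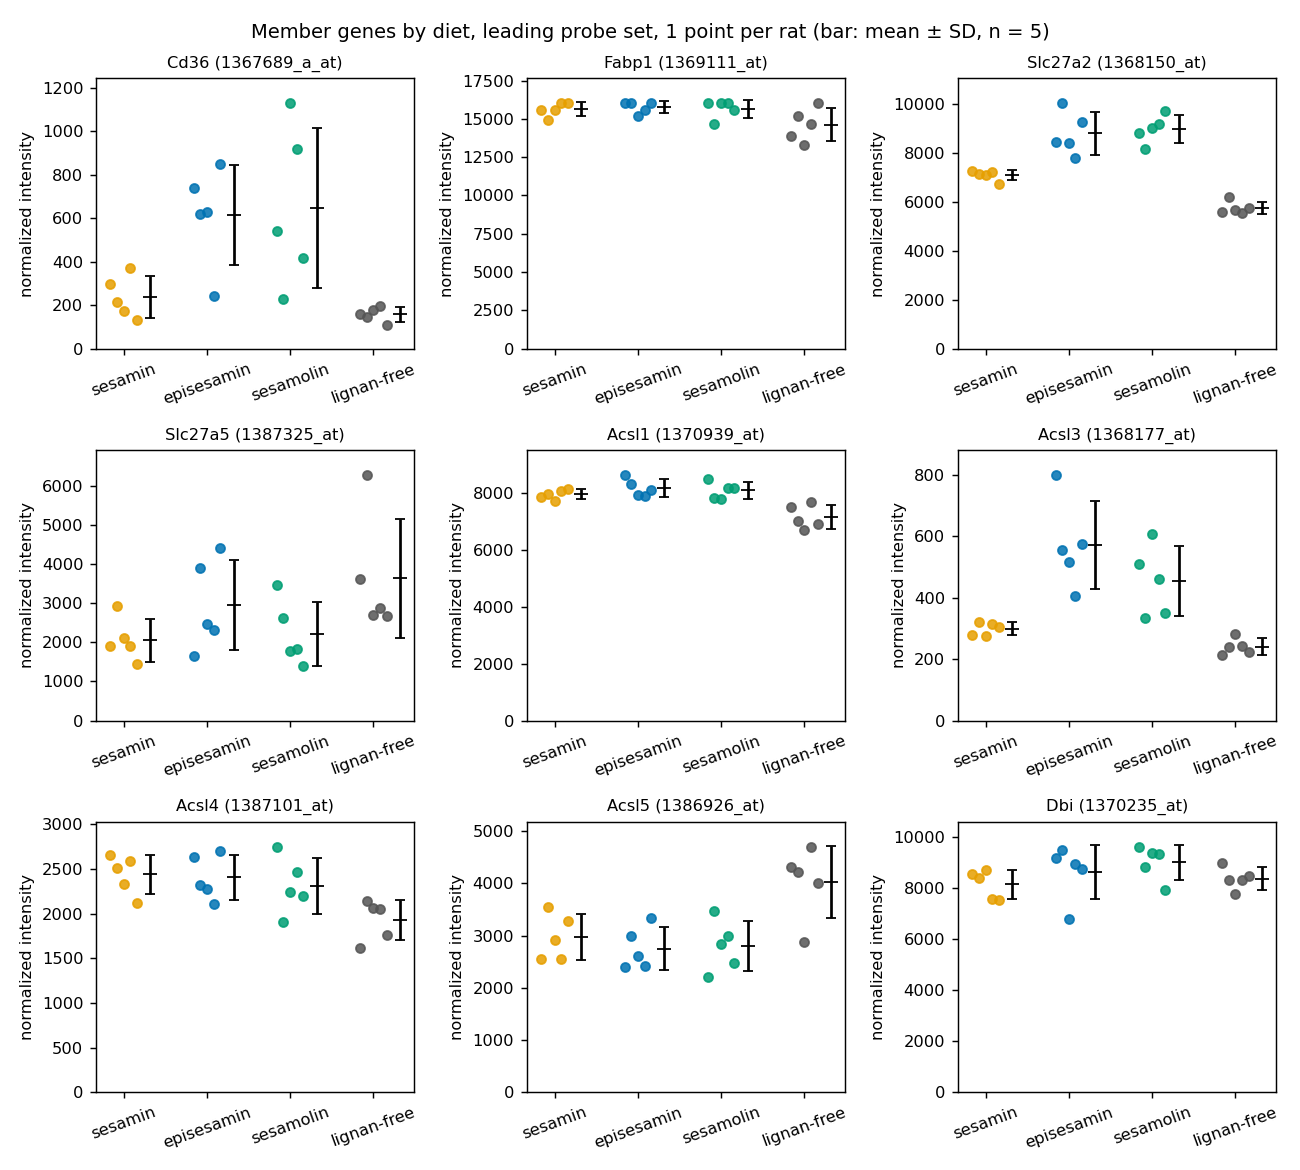
Normalized intensity (linear axis from 0) of the leading probe set of each of the 9 genes, with 1 point per rat and the mean ± SD of 5 rats beside it, for sesamin, episesamin, sesamolin and lignan-free rats. Cd36, Slc27a2 and Acsl3 lie higher in all 5 episesamin and all 5 sesamolin rats than in any lignan-free rat, while Fabp1 sits near its upper limit of 16033.1 on every diet.

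Cd36, the scavenger receptor that binds long-chain fatty acids at the cell surface, showed the highest fold change of the group. Its probe set 1367689_a_at read 296.4, 213.9, 171.2, 369.2 and 131.9 in sesamin rats. It read 737.9, 621.1, 630.3, 241.8 and 850.8 in episesamin rats and 541.0, 230.6, 1130.3, 920.3 and 417.3 in sesamolin rats. Lignan-free rats read 159.2, 146.1, 178.3, 197.3 and 109.7. All episesamin and sesamolin rats lay above all lignan-free rats, whereas 3 of 5 sesamin rats did, and the spread among rats was widest with sesamolin, at 4.90-fold from the lowest to the highest, against 1.80-fold without lignan. The log2 change was 1.84 ± 0.39 with episesamin (3.57-fold, adjusted p = 0.0105) and 1.81 ± 0.39 with sesamolin (3.51-fold, adjusted p = 0.0114; SE, n = 5 per diet). With sesamin it was 0.50 ± 0.39, with an interval from -0.32 to 1.32 and an adjusted p of 0.886. Both calls ended without normalization between arrays and without the 4 arrays numbered 1 (adjusted p up to 0.0832 with episesamin and 0.0735 with sesamolin). Episesamin rat 4 lay far below the other episesamin rats and sesamolin rat 2 was the lowest of its diet, and neither the episesamin nor the sesamolin call ended when any 1 array was left out (adjusted p at most 0.0341 and 0.0348).

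A further probe set, 1386901_at, is annotated to Cd36l1 and Cd36 together and was not counted among the members. It read 512.4, 403.3, 348.6, 613.7 and 294.7 in sesamin rats, 1227.3, 942.1, 951.2, 409.4 and 1291.9 in episesamin rats and 1066.1, 493.0, 1770.3, 1496.8 and 670.4 in sesamolin rats, against 337.0, 301.8, 265.2, 387.1 and 229.5 in lignan-free rats. The rats that were low for the first probe set in the episesamin and sesamolin diets, episesamin 4 and sesamolin 2, were the lowest here too. Added to the fit after the data were seen, it rose 2.96-fold with episesamin (log2 1.57 ± 0.34, adjusted p = 0.0110) and 3.26-fold with sesamolin (1.70 ± 0.34, adjusted p = 0.00547). Its log2 change with sesamin was 0.48 ± 0.34 (adjusted p = 0.859).

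CD36 is also made by macrophages, endothelium and adipocytes, so markers of these cells were set beside it. Of 9 tested Kupffer cell and macrophage markers (12 listed), 0 were called with sesamin, 2 were lower with episesamin and 7 were lower with sesamolin, and none was higher. Among all 15894 tested probe sets 3, 228 and 359 were called lower with sesamin, episesamin and sesamolin. The median log2 change of these macrophage markers was -0.27, -0.40 and -0.74. Their summed level was 4515 to 6935, 4533 to 5607 and 3204 to 4936 with sesamin, episesamin and sesamolin, against 6360 to 7341 without lignan. Of 8 tested endothelial markers (10 listed), the receptors Kdr and Lyve1 were lower with episesamin and with sesamolin. The median log2 change of the 8 was 0.01, -0.01 and -0.13 with sesamin, episesamin and sesamolin, and 4, 4 and 3 of them lay above 0. Their sums were 2883 to 3159, 2472 to 2876 and 2362 to 2922 with sesamin, episesamin and sesamolin, against 2968 to 3496 without lignan. Of 6 adipocyte markers, the defining genes Adipoq and Lep did not pass the filter, 0 of the 3 that did were called by limma, and the sums were 694.4 to 916.7, 814.3 to 912.3 and 675.3 to 812.8 with the lignans, against 610.0 to 932.4. Among other tissues, Mb and Acta1 of muscle and Vil1 and Si of intestine did not pass the filter, and the muscle gene Ckm, a dim probe set, was higher with episesamin at 31.5 ± 12.7, against 15.1 ± 7.53 without lignan (adjusted p = 0.0348). The part of other cells in the members' results was not tested.

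Slc27a2 (fatty acid transport protein 2) is both a transporter and an acyl-CoA synthetase for very long-chain fatty acids, found in peroxisomes and the endoplasmic reticulum. Its half-site is shown in capitals in the promoter printed above. The probe set 1368150_at read 7292, 7141, 7096, 7219.8 and 6754 in sesamin rats. It read 8478, 10061, 8440.3, 7806 and 9277 in episesamin rats and 8850.1, 8179, 9048, 9182 and 9714 in sesamolin rats. Lignan-free rats read 5618, 6203, 5662, 5551 and 5761. The diets formed 3 separate layers, with every sesamin rat above every lignan-free rat and every episesamin and sesamolin rat above every sesamin rat, and with episesamin and sesamolin overlapping. It rose 1.53-fold with episesamin (log2 0.61 ± 0.08, adjusted p = 6.59e-05) and 1.56-fold with sesamolin (0.64 ± 0.08, adjusted p = 3.63e-05). With sesamin the log2 change was 0.30 ± 0.08 and did not pass (1.23-fold, adjusted p = 0.177), although the rats did not overlap, and it passed with a trended and robust prior and with the adjustment run over the 3 comparisons together (lowest adjusted p 0.0120). The episesamin and sesamolin calls ended only without normalization between arrays among 17 alternatives (adjusted p = 0.186 and 0.131).

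Without overlap between 5 lignan and 5 lignan-free arrays there were 2 of 11 member probe sets with sesamin (background 1.75%), 5 with episesamin (background 6.17%) and 4 with sesamolin (background 6.27%). These backgrounds count both directions, whereas all of these members were higher with the lignan. The 2 with sesamin were Slc27a2 and the Acsl1 probe set 1370939_at, both higher.

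Slc27a5, the fatty acid transport protein 5 that also joins bile acids to coenzyme A, did not follow Slc27a2. Its probe set 1387325_at read 1903, 2937, 2102, 1895 and 1435 in sesamin rats. It read 1659, 3906, 2473, 2308 and 4419.6 in episesamin rats and 3464, 2612, 1788, 1833 and 1407 in sesamolin rats. Lignan-free rats read 3625, 6290.2, 2714, 2886 and 2667. All diets overlapped, and 1 lignan-free rat, number 2, stood far above the rest, which lay between 2667 and 3625. The log2 change was -0.78 ± 0.30, -0.31 ± 0.30 and -0.70 ± 0.30 with sesamin, episesamin and sesamolin, and none passed (adjusted p = 0.577, 0.631 and 0.207). The 95% intervals ran from -1.40 to -0.15, from -0.93 to 0.32 and from -1.33 to -0.08.

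Of the binding proteins, neither passed with any lignan. Fabp1, the liver fatty acid-binding protein of the cytosol, was the brightest probe set on 9 of the 20 arrays and never below place 13. It read 15552, 14944.5, 15552, 16033 and 16033 in sesamin rats, 16033, 16033, 15216, 15552 and 16033 in episesamin rats and 16033, 14684, 16033, 16033 and 15552 in sesamolin rats, against 13877, 15216, 13274, 14684 and 16033 in lignan-free rats. Quantile normalization gives the brightest probe set of every array the same value, 16033.1, so Fabp1 could not exceed it, and it stood there on 2, 3 and 3 arrays with sesamin, episesamin and sesamolin and on 1 without lignan. Its log2 change was 0.10 ± 0.07, 0.11 ± 0.07 and 0.10 ± 0.07 (adjusted p = 0.859, 0.410 and 0.454). Under median scaling, which sets no such limit, it was 0.06, 0.14 and 0.18 (adjusted p = 0.890, 0.375 and 0.278). No change of Fabp1 was detectable, and its signal at the top of the array limits what these values can show.

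Dbi, the acyl-CoA-binding protein that holds activated fatty acids, read 8543, 8383, 8698, 7552 and 7512 in sesamin rats, 9182, 9484, 6774, 8921 and 8751 in episesamin rats and 9612, 8803, 9369.6, 9315 and 7908 in sesamolin rats, against 8988, 8291, 7738, 8291 and 8478 in lignan-free rats. The ranges overlapped throughout. The log2 change was -0.04 ± 0.09, 0.04 ± 0.09 and 0.11 ± 0.09 with sesamin, episesamin and sesamolin (adjusted p = 0.972, 0.881 and 0.594), and the 95% intervals lay between -0.24 and 0.30.

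Among the acyl-CoA synthetases, Acsl3, an enzyme of the endoplasmic reticulum and lipid droplets, had the highest fold change. Its probe set 1368177_at read 276.9, 321.8, 274.9, 313.3 and 303.8 in sesamin rats. It read 800.0, 555.1, 516.8, 406.2 and 574.6 in episesamin rats and 510.9, 333.1, 607.0, 462.1 and 350.6 in sesamolin rats. Lignan-free rats read 212.5, 240.6, 282.3, 243.9 and 222.4. Every episesamin and sesamolin rat lay above every lignan-free and every sesamin rat, and 3 of 5 sesamin rats lay above all lignan-free rats. It rose 2.30-fold with episesamin (log2 1.20 ± 0.17, adjusted p = 0.000153) and 1.83-fold with sesamolin (0.87 ± 0.17, adjusted p = 0.00436). With sesamin the log2 change was 0.31 ± 0.17 (interval -0.04 to 0.66, adjusted p = 0.768). The 2 calls ended only without normalization between arrays among 17 alternatives (adjusted p = 0.0811 and 0.212).

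Acsl1, the main acyl-CoA synthetase of rodent liver, was read by 2 tested probe sets that gave changes of different size. Probe set 1388153_at read 6561, 6626, 6541, 5949.7 and 6272 in sesamin rats, 7779, 7269.6, 6907, 7369 and 7627 in episesamin rats and 7002, 6982, 6161, 7242 and 7096 in sesamolin rats, against 5862, 4867, 4804, 6203 and 5220.4 in lignan-free rats. Only the episesamin rats lay wholly above the lignan-free ones. It rose 1.38-fold with episesamin (log2 0.46 ± 0.08, adjusted p = 0.00292) and 1.28-fold with sesamolin (0.36 ± 0.08, adjusted p = 0.0187), with 0.25 ± 0.08 for sesamin (adjusted p = 0.425). The sesamolin call ended in 5 of the 15 alternatives that kept this probe set as its own row (adjusted p up to 0.474) and without lignan-free rat 2 (adjusted p = 0.0525). The episesamin call ended without normalization between arrays and when the 6 dimmest arrays (raw mean below 200) were left out (adjusted p up to 0.352).

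Probe set 1370939_at, the brighter of the pair, averaged 7942 ± 170.0 with sesamin, 8159 ± 309 with episesamin and 8084 ± 293 with sesamolin, against 7139 ± 415 without lignan (SD, n = 5 each). Here the rats of every lignan diet lay above all lignan-free rats, yet no change passed. The log2 change was 0.16, 0.19 and 0.18 (each ± 0.07, adjusted p = 0.646, 0.118 and 0.141), and those with episesamin and sesamolin passed with a trended and robust prior. The average of the gene's 2 tested probe sets passed too with these lignans, but it takes in 1388153_at, which was called on its own. The change of 1388153_at exceeded that of 1370939_at by 0.27 log2 units with episesamin and 0.18 with sesamolin, where exact permutation p-values were 0.00794 and 0.0159 (Benjamini-Hochberg 0.0238 for each over 6 such tests, chosen after the data were seen). With sesamin the excess was 0.10 (exact p = 0.119).

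**Figure D2:**
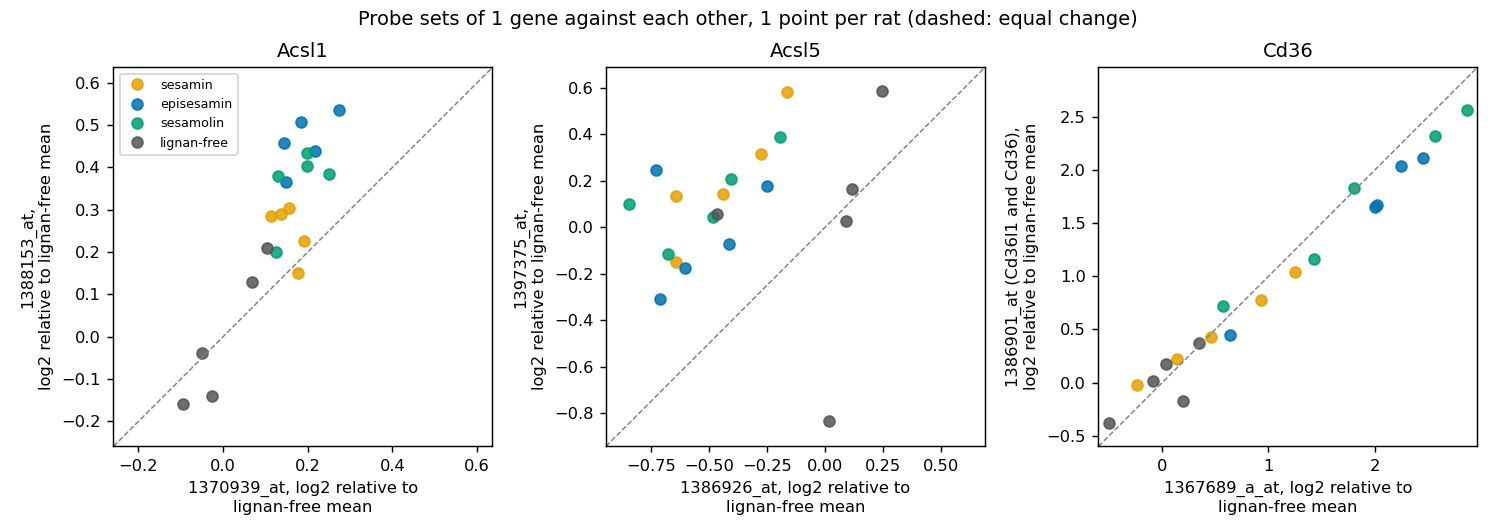
Log2 values of 1 probe set of a gene (x axis) against another (y axis), each relative to its lignan-free mean, with 1 point per rat for sesamin, episesamin, sesamolin and lignan-free rats and a dashed line of equal change. Most Acsl1 points of lignan rats lie above the line, the Acsl5 points of lignan rats spread to the left of it, and those of Cd36 follow it, with the probe set annotated to Cd36l1 and Cd36 a little lower at the bright end.

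Acsl5, which activates fatty acids at the endoplasmic reticulum and mitochondria, had its lower means in the lignan diets for 1 of 2 probe sets. Probe set 1386926_at read 2548, 3542, 2927, 2548 and 3286 in sesamin rats, 2397, 2985, 2617, 2426 and 3342 in episesamin rats and 2216, 3470.2, 2844, 3001 and 2486 in sesamolin rats, against 4308, 4228, 2881, 4706 and 4018 in lignan-free rats. Lignan-free rat 3 lay among the lignan rats, and the other 4 lay above all of them. The log2 change was -0.43, -0.54 and -0.52 (each ± 0.15) with sesamin, episesamin and sesamolin, and the adjusted p was 0.468, 0.0507 and 0.0525, just short of the threshold with episesamin and sesamolin. It passed in 6 of 17 alternatives with episesamin (lowest adjusted p 0.0211) and in 7 with sesamolin (lowest 0.0198), and for both without lignan-free rat 3 and without sesamolin rat 2. The replicate number as a block was 1 of these alternatives (adjusted p = 0.0374 with episesamin). With episesamin it passed also without sesamin rat 2, episesamin rat 5 or sesamolin rat 1. The dimmer probe set 1397375_at averaged 100.5 ± 18.9, 85.4 ± 13.8 and 94.5 ± 12.4 with sesamin, episesamin and sesamolin, against 90.2 ± 28.9, with log2 changes of 0.19, -0.03 and 0.11 (each ± 0.19, adjusted p = 0.926, 0.955 and 0.803). The changes of the 2 probe sets differed by -0.64 log2 units with sesamin (exact permutation p = 0.0159, Benjamini-Hochberg 0.0238) and by -0.65 with sesamolin (exact p = 0.00794, Benjamini-Hochberg 0.0238). With episesamin the difference was -0.51 (exact p = 0.0952, Benjamini-Hochberg 0.114). On values not normalized between arrays the differences were -0.59 with sesamin (exact p = 0.0317) and -0.53 with sesamolin (exact p = 0.0556, no longer below 0.05).

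Acsl4, a synthetase that prefers arachidonic acid, had higher means with each lignan that did not pass. Its probe set 1387101_at read 2652, 2509.9, 2331, 2588 and 2114 in sesamin rats, 2638, 2320.0, 2279, 2102 and 2699 in episesamin rats and 2749.7, 1911, 2242, 2463 and 2196 in sesamolin rats, against 1618, 2146, 2062, 2053 and 1766 in lignan-free rats. In each lignan diet 4 of 5 rats lay above all lignan-free rats. The log2 change was 0.34, 0.32 and 0.26 (each ± 0.11, adjusted p = 0.418, 0.124 and 0.217).

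**Figure D3:**
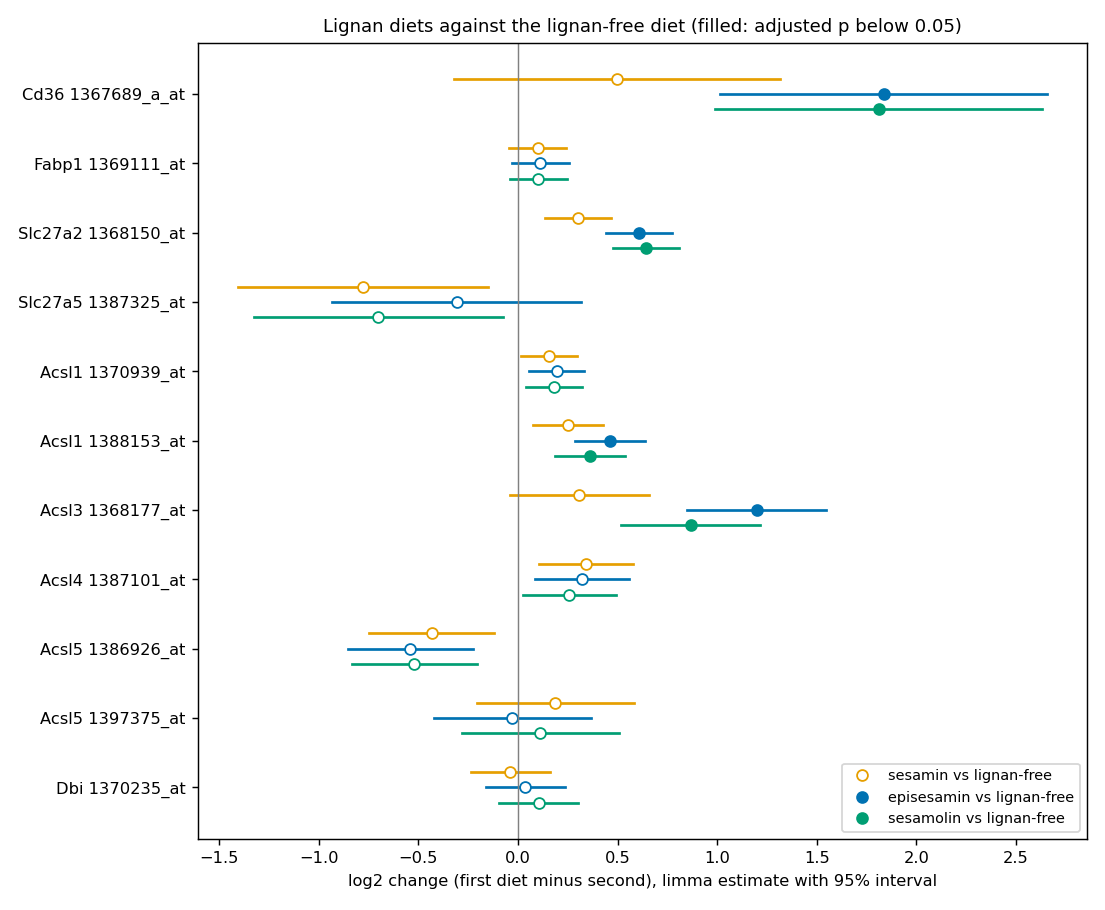
Log2 change (x axis, lignan minus lignan-free) of the 11 tested member probe sets with its 95% interval, for sesamin, episesamin and sesamolin, with filled points where the adjusted p is below 0.05. The 8 filled points belong to Cd36, Slc27a2, Acsl3 and the Acsl1 probe set 1388153_at with episesamin and sesamolin, and no sesamin point is filled.

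The lignans were then compared with each other at the matched dose of 0.2% and the matched time of 15 d. The 3 pairs gave 33 comparisons over the 11 member probe sets, of which 2 passed. Adjusted p-values run over all tested probe sets of a pair. Between episesamin and its epimer sesamin, 1 of 11 was called, as higher. The background there was 1.04% called in either direction, with 119 of 15894 probe sets called higher. Between sesamolin and sesamin 1 of 11 was called, as higher (background 1.37% called in either direction and 0.793% called higher). Between sesamolin and episesamin limma called 0 of 11 members and 0% of all tested probe sets; at an unadjusted p below 0.05 there were 0 members and 904 probe sets.

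Acsl3 was 1.86-fold higher with episesamin, at 570.5 ± 144, than with sesamin, at 298 ± 21.3 (log2 difference 0.89 ± 0.17, adjusted p = 0.00977). The rats of the 2 diets did not overlap. That call ended under median scaling, without normalization and without the arrays numbered 1 (adjusted p up to 0.480). Sesamolin minus sesamin was 0.56 ± 0.17 for Acsl3 (interval 0.21 to 0.91, adjusted p = 0.116). Sesamolin minus episesamin was -0.33 ± 0.17 (interval -0.68 to 0.02, adjusted p = 0.879).

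Slc27a2 was 1.27-fold higher with sesamolin than with sesamin (log2 difference 0.34 ± 0.08, adjusted p = 0.0370), again without overlap of rats. The call ended in 8 of 17 alternatives (adjusted p up to 0.646), among them the replicate number as a block. It ended as well when any sesamin rat, any sesamolin rat except number 2, or lignan-free rat 5 was left out (adjusted p up to 0.0979). Episesamin minus sesamin was 0.31 ± 0.08 (interval 0.14 to 0.47, adjusted p = 0.0753), which did not pass. Sesamolin minus episesamin was 0.03 ± 0.08 (interval -0.13 to 0.20).

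Cd36 had the widest intervals. Episesamin minus sesamin was 1.34 ± 0.39 (interval 0.52 to 2.16, adjusted p = 0.134) and sesamolin minus sesamin 1.31 ± 0.39 (interval 0.49 to 2.13, adjusted p = 0.117). The first passed without episesamin rat 4, at 1.64 (adjusted p = 0.0442), and the second without sesamolin rat 2, at 1.63 (adjusted p = 0.0334). Sesamolin minus episesamin was -0.03 ± 0.39, and its interval from -0.85 to 0.79 spans folds of 0.557 to 1.73. For the Acsl1 probe set 1388153_at episesamin minus sesamin was 0.21 ± 0.08 (interval 0.03 to 0.39, adjusted p = 0.312). For Fabp1, Dbi, Acsl4 and the Acsl1 probe set 1370939_at the greatest difference between 2 lignans was 0.14 on the log2 scale (Dbi, sesamolin minus sesamin), and none passed. For Acsl5 and Slc27a5 the pair differences ran from -0.39 to 0.47 and none passed.

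**Figure D4:**
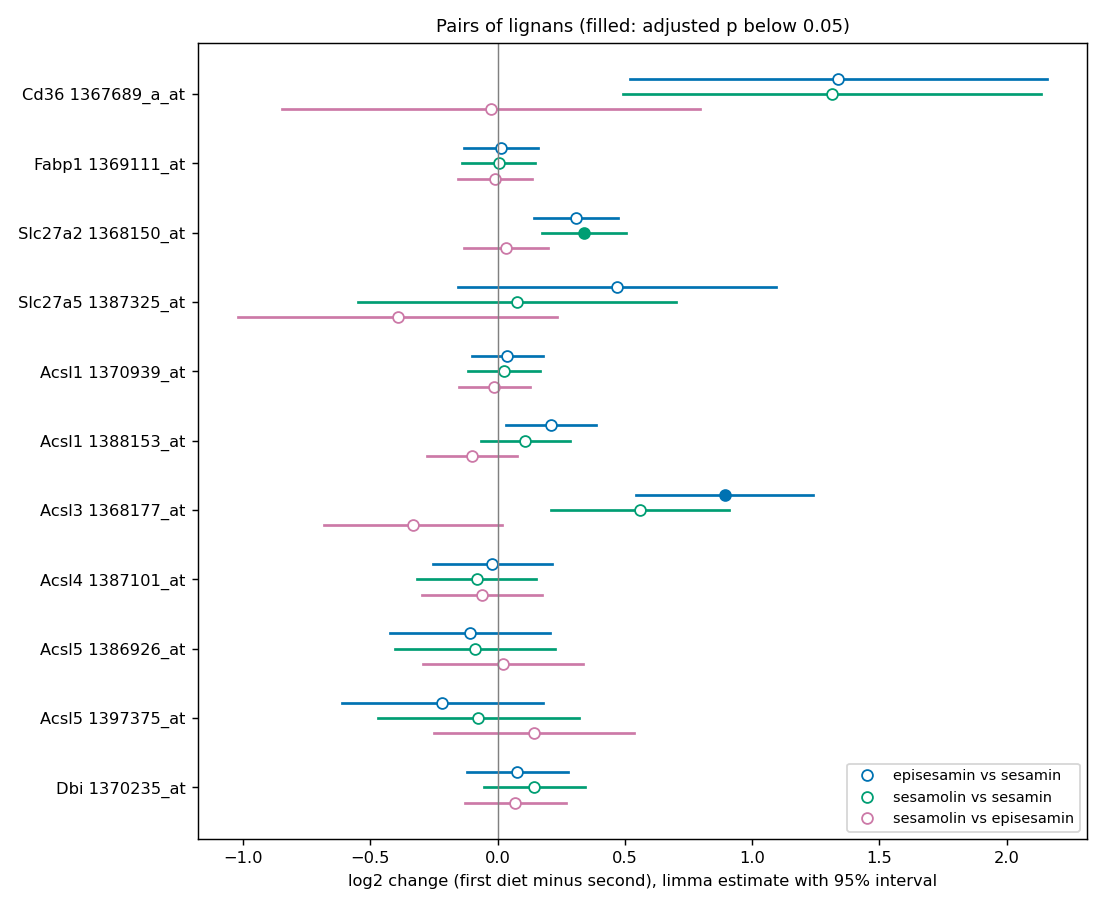
Log2 difference (x axis, first lignan minus second) of the 11 tested member probe sets with its 95% interval, for episesamin minus sesamin, sesamolin minus sesamin and sesamolin minus episesamin, with filled points where the adjusted p is below 0.05. The filled points are Acsl3 for episesamin minus sesamin (0.89) and Slc27a2 for sesamolin minus sesamin (0.34).

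For the 3 genes whose leading probe set was called by the F test, the genes of most like pattern were found by Pearson's r of log2 values over the 20 arrays among 11575 genes. The arrays share the diets and the normalization, so r is a description only. Cd36 was most like Aqp7, a glycerol channel (r = 0.90), Acsl3 (0.89) and the lipid droplet protein Cidea (0.89). Slc27a2 was most like Ehhadh, the peroxisomal bifunctional enzyme (0.97), Hadha, a subunit of the mitochondrial trifunctional protein (0.96), and the carnitine acetyltransferase Crat (0.96). Acsl3 was most like Suclg1, a subunit of succinyl-CoA ligase (0.93), Cd36 (0.89) and the peroxisomal hydrolase Nudt7 (0.88).

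The other genes of the pathway were counted on their leading probe sets. Of 23 other uptake and binding genes 20 were tested: 1 rose with sesamin, and 1 rose and 1 fell with episesamin and with sesamolin. Their median log2 change was -0.03, -0.13 and -0.09. The rising gene was Fabp7, the brain-type fatty acid-binding protein, at 2876 ± 367 with sesamin, 3849 ± 676 with episesamin and 3807 ± 706 with sesamolin, against 1741 ± 257 without lignan (SD, n = 5 each). Its log2 change was 0.72, 1.14 and 1.12 (each ± 0.15, adjusted p = 0.0391, 8.04e-05 and 9.99e-05), and the sesamin call ended in 7 of 17 alternatives (adjusted p up to 0.977) and without any 1 of 10 arrays (adjusted p up to 0.139). These were lignan-free rats 1 to 4, sesamin rats 1, 3, 4 and 5, episesamin rat 4 and sesamolin rat 4. The falling gene was Fabp5, the epidermal-type binding protein, at 1924 ± 446 with episesamin and 2345 ± 609.5 with sesamolin, against 4202 ± 928.5 (log2 -1.13 ± 0.22, adjusted p = 0.00632, and -0.85 ± 0.22, adjusted p = 0.0370). The sesamolin call of Fabp5 ended in 7 of 17 alternatives (adjusted p up to 0.106) and when any 1 lignan-free rat except number 3 or any 1 sesamolin rat except number 2 was left out (adjusted p up to 0.0941). Its episesamin call ended without the arrays numbered 1 (adjusted p = 0.0525). With sesamin Fabp5 was at 2436 ± 741 (log2 -0.81 ± 0.22, adjusted p = 0.247). The bright Scp2, a sterol carrier protein, and Got2, a mitochondrial aminotransferase also described as a membrane fatty acid-binding protein, had log2 changes between -0.15 and 0.14 and did not pass.

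Of 15 other acyl-CoA synthetase genes 10 were tested: 0 were called with sesamin by limma, and 2 rose and 1 fell with episesamin and with sesamolin. Their median log2 change was 0.17, 0.24 and 0.29. Acsm5, a medium-chain synthetase, was at 209 ± 37.2 with episesamin and 184 ± 96.0 with sesamolin, against 58.6 ± 34.0 (log2 1.90 ± 0.37, adjusted p = 0.00505, and 1.58 ± 0.37, adjusted p = 0.0187). The sesamolin call of Acsm5 ended in 2 of 17 alternatives (adjusted p up to 0.0972) and without lignan-free rat 4 or 5 or sesamolin rat 5 (adjusted p up to 0.0539). Acsm2, of the same subfamily, was at 191 ± 20.8 and 205 ± 119, against 60.8 ± 32.4 (log2 1.71 and 1.66, each ± 0.47, adjusted p = 0.0474 and 0.0482). The Acsm2 calls ended in 10 of 17 alternatives with episesamin and 12 with sesamolin and without most single arrays (14 and 15 of 20, adjusted p up to 0.113 and 0.121). Acss2, the cytosolic acetyl-CoA synthetase, was at 1196 ± 213 and 1324 ± 211, against 2245 ± 697 (log2 -0.86 and -0.71, each ± 0.19, adjusted p = 0.0124 and 0.0367). The sesamolin call of Acss2 ended in 6 of 17 alternatives (adjusted p up to 0.159) and without lignan-free rat 1, 2, 4 or 5 or sesamolin rat 1, 3 or 5 (adjusted p up to 0.0921). Its episesamin call ended without the arrays numbered 1 and in a fit of the 2 diets alone (adjusted p up to 0.0954). The log2 changes of Acsm5, Acsm2 and Acss2 with sesamin were 1.07 ± 0.37, 0.34 ± 0.47 and -0.47 ± 0.19 (adjusted p = 0.457, 0.951 and 0.598). Acsm1 and Acss3, bright and not called, had log2 changes between 0.03 and 0.19. No gene of either list was called between 2 lignans by limma.

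**Figure D5:**
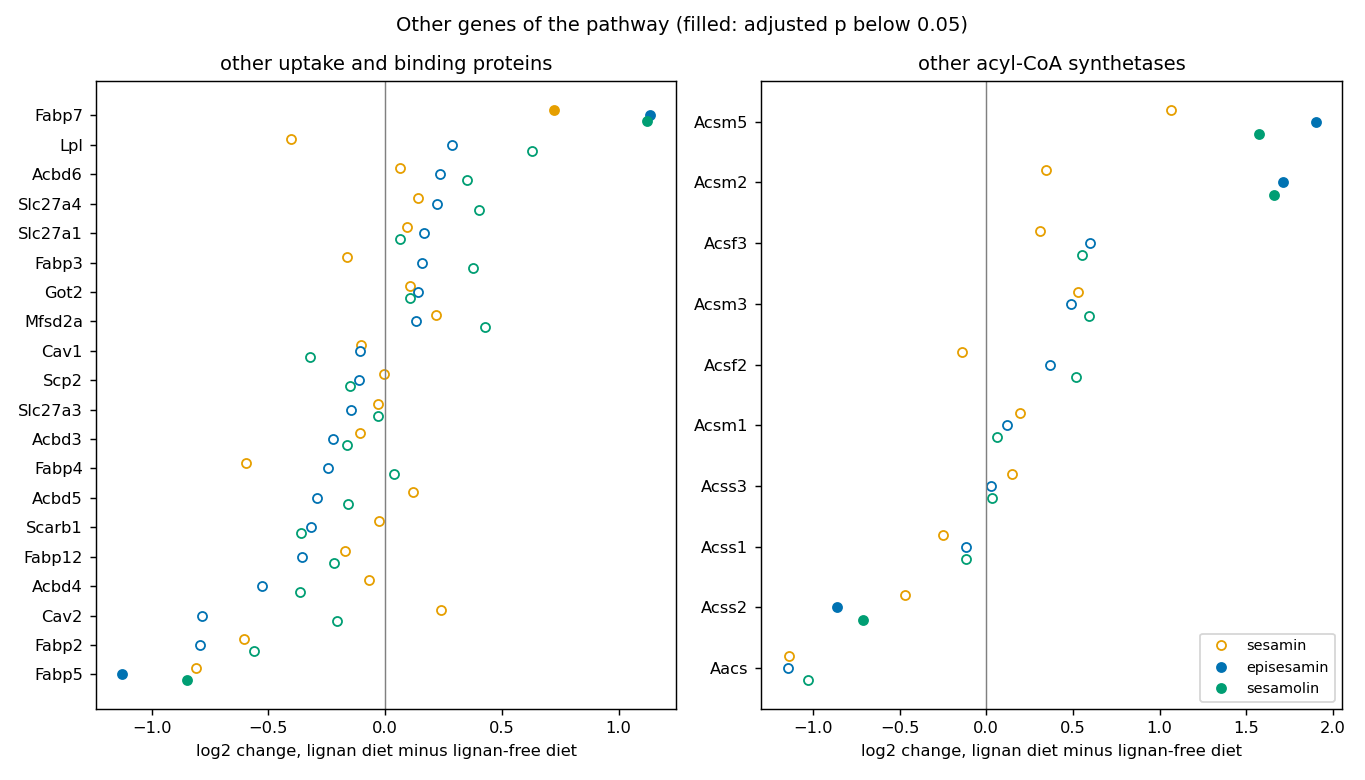
Log2 change (x axis, lignan minus lignan-free) of the 20 other uptake and binding genes and the 10 other acyl-CoA synthetases tested, 1 point per gene and lignan, filled where the adjusted p is below 0.05. Fabp7, Acsm5 and Acsm2 lie to the right and Fabp5 and Acss2 to the left with episesamin and sesamolin, and Fabp7 alone has a filled point with sesamin.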

How the data were processed

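Liver RNA of 20 rats was measured on Affymetrix arrays after biotin labelling of cRNA, per the labels' protocols. The authors deposited linear intensity values, 1 for each probe set on each array, made with software not given in the sources used here. No signal over background was available here, and precision is limited by the number of arrays. Of 31099 probe sets, 20826 had 1 gene symbol in GEO's platform annotation, 436 had several, 57 were controls and 9780 were not listed, and only the first class was tested.

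Values were made comparable by quantile normalization, then log2 was taken after adding 5.845 (their 20th percentile), so that fold changes of dim probe sets are understated. Dim probe sets, with fewer than 5 arrays above the 40th percentile, were left out. Each probe set kept its own row. A model with 4 diet means was fitted to 15894 probe sets (11576 genes) with limma 3.58.1 in R 4.3.3, with 16 residual and 2.669 prior degrees of freedom, for 6 comparisons. The moderated tests were two-sided, with Benjamini-Hochberg adjustment over each comparison, and intervals cover 95%. The fit was tested on simulated data.

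All 9 member genes are named, and the probe set with the highest mean leads its gene. From each list of other pathway genes up to 4 called genes of lowest adjusted p and up to 2 bright uncalled ones are named. The members and lists were chosen with earlier results of these data known.

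No label says that a replicate number marks a shared litter, batch or day, so the main fit has no block. Alternatives changed the scaling, offset, filter, probe set summary, prior, weights, arrays, covariates, block and adjustment, 17 in all, and left out each of the 20 arrays in turn. A probe set annotated to Cd36l1 and Cd36 was added to the fit as a further alternative after the data were seen.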

Additional observations from a re-analysis of the deposited data

Results flagged for a closer look

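Outlying arrays were sought on the log2 scale in 44 sets of 5 arrays (11 member probe sets on 4 diets). The distance of the highest or lowest array from its nearest neighbour was set against the whole range. At Dixon's 95% level 3 arrays stood apart. Values given below are normalized intensities, on which the same distances would differ. Chance alone flags a small share of such sets at this level, about 5 in 100. The Cd36 probe set 1367689_a_at was 241.8 in episesamin rat 4, where the other episesamin rats lay between 621.1 and 850.8. The same rat was the lowest of its diet for 6 of 11 member probe sets, and its array had a mean raw intensity of 195.1. The Acsl1 probe set 1388153_at was 6161 in sesamolin rat 3, where the other sesamolin rats lay between 6982 and 7242. Dbi was 6774 in episesamin rat 3, where the others lay between 8751 and 9484, and that array had the lowest mean raw intensity of its diet, 170.8. The part of array brightness in these values was not tested.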

How the results depend on the processing

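As reported, 0, 4 and 4 member probe sets were called with sesamin, episesamin and sesamolin against the lignan-free diet, and 1, 1 and 0 for episesamin against sesamin, sesamolin against sesamin and sesamolin against episesamin. Over all 15894 tested probe sets the calls in this order were 53, 599, 773, 165, 217 and 0. Over 17 alternatives and 20 fits without 1 array no called log2 change turned sign. With no normalization between arrays the counts were 0 with episesamin, 0 with sesamolin and 0 for both pairs with sesamin, and the median log2 change of all probe sets then was -0.07, -0.24 and -0.21 with sesamin, episesamin and sesamolin. Calls over all 15924 probe sets tested there were 267 with episesamin, 258 with sesamolin and 10 and 20 for the pairs. Under median scaling both pair counts with sesamin were 0 and the episesamin median was -0.12. Calls over all 15872 probe sets were 63 for episesamin against sesamin and 91 for sesamolin against sesamin. Without the arrays numbered 1 the counts were 3 with episesamin and 2 with sesamolin, and both pair counts were 0. All probe sets then gave 351 calls with episesamin, 362 with sesamolin and 82 and 72 for the pairs. A trended and robust prior gave 1 with sesamin and 6 each with episesamin and sesamolin, and the adjustment over 3 comparisons together gave 1 with sesamin and 0 for sesamolin against sesamin. That prior raised the calls over all probe sets to 84, 814 and 942 with sesamin, episesamin and sesamolin. That adjustment gave 101 over all probe sets with sesamin and 150 for sesamolin against sesamin. For episesamin against sesamin the count was 2 with a filter at the 60th percentile, with a trended prior, with array weights and without the dim arrays, and 3 with brightness as a covariate. Calls over all probe sets in this order were 205 (of 11106), 240, 206, 101 and 152. For sesamolin against sesamin the member count was 0 without the filter and with only the groups compared, and 2 with array weights and without the dim arrays. Calls over all probe sets in this order were 153 (of 20826), 55, 267 and 105. With the replicate block the count was 0 for sesamolin against sesamin and 5 each with episesamin and sesamolin, where the Acsl5 probe set 1386926_at was added. All probe sets then gave 225 calls for sesamolin against sesamin, 746 with episesamin and 874 with sesamolin. Deviations of same-numbered arrays correlated at -0.0548 to 0.240, above 0.1 in 9 of 30 pairs. As a hint from the data and not the design, 11 of 20 arrays had their best match in another diet in an array of their own number. Pairs of different number were not set beside these values and no chance level was worked out, so the strength of the hint was not tested. Fits that left out arrays used fewer samples, and the cause of the changed counts was not tested. Without 1 array the counts ran from 0 to 0 with sesamin, 4 to 5 with episesamin, 3 to 5 with sesamolin, 1 to 2 and 0 to 2 for the pairs with sesamin and 0 to 0 for sesamolin against episesamin.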
